A study of Mus musculus with 12 samples.

Results

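Scin, Kcnc1, Aldh1a1, Afap1, Sdc2, Col1a2, Thsd4, Il18r1, Ppm1e and Cmah are 10 of the 41128 genes in a count table of RNA-Seq libraries from mouse PreMegEs. They were chosen by their measured levels. For the first 9 the levels in WT PreMegEs lay outside those of the P2-, P2+ and RUNX1C KO PreMegEs, and Cmah was chosen by RUNX1C KO against WT. Values against WT, and the RUNX1C KO values of Cmah, are therefore given as a description with no test. For the other 9 genes, differences among P2-, P2+ and RUNX1C KO PreMegEs were not the criterion of the choice and were tested. The choice did use the values of these groups against WT, and earlier results of these data were known.

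PreMegEs are bone marrow progenitors that give rise to megakaryocytes and to erythroid cells. RUNX1 is a transcription factor required for normal megakaryocyte maturation, and its gene is read from a distal promoter (P1, isoform RUNX1C) and a proximal promoter (P2, isoform RUNX1B). The genes described here have several functions and were not chosen for them. Scin and Afap1 act on actin filaments, Ppm1e on a kinase that regulates actin, Sdc2, Col1a2 and Thsd4 belong to the cell surface proteoglycans and the matrix, Kcnc1 and Il18r1 are a channel and a receptor subunit, and Aldh1a1 and Cmah are metabolic enzymes.

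All cells came from the bone marrow of adult C57BL/6 mice aged 12 to 16 weeks, with cells of 3 mice pooled in each library and 3 libraries in each of 4 groups. WT PreMegEs came from wild type mice and were not separated by a reporter. P2- and P2+ PreMegEs came from mice heterozygous for the Runx1 P1-GFP::P2-hCD4 knock-in, in which GFP marks activity of P1 and a truncated human CD4 marks activity of P2. Both were GFP positive and were separated by hCD4. A knock-in allele makes reporter in place of RUNX1, so these cells kept 1 functional Runx1 allele while WT cells kept both. RUNX1C KO PreMegEs (KO) lacked the isoform from P1. In the study, RUNX1C null mice are homozygous for a P1-GFP allele that leaves expression from P2 in place. Its RNA-Seq results name only WT, P2- and P2+ PreMegEs and give no details of the KO libraries. The gate was negative for lineage markers, Sca1, CD16/32, CD41 and Endoglin and positive for cKit and CD150. Genotype, the hCD4 sort and any batch that differs between the groups cannot be told apart in the comparisons with WT, and whether the KO libraries were prepared with the others is not given in the sources used here.

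Library totals ranged from 10726098 to 14445026 counts. By these totals, without TMM, 3 counts, the limit that a count of 0 allows, corresponded to 0.208 to 0.280 CPM. Gene levels in CPM are counts scaled to the library size, after TMM. The limit of 3 counts covers counting error only. All 10 genes of a PreMegE marker list (including Kit, Slamf1, Gata1 and Gata2) were detected in every group, with summed levels of 3545 to 4323 CPM. Total Runx1 counts, which join both promoters and so do not check the loss of RUNX1C, gave 370 ± 16.1 CPM in WT, 209.9 ± 7.83 in P2-, 632 ± 23.6 in P2+ and 360 ± 20.9 in KO PreMegEs (mean ± SD, n = 3). Replicate 2 of P2- and of P2+ stood apart by Fos, an immediate early gene, at 1317 and 908 CPM against 0.318 to 166 CPM in the other 10 libraries, and the pools differed in sex, since replicate 3 of P2- and P2+ held 0 counts of the Y-linked gene Ddx3y and the other 10 libraries 20.8 to 105 CPM. WT and KO pools all held both Ddx3y and Xist counts.

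The 10 genes lie on 10 different chromosomes in GRCm38 and none is on chromosome 16, which holds Runx1. RefSeq promoter windows (GRCm38.p6, 300 bases around a start site) were found for 9 of the 10, 14 windows in all, and none for Sdc2. The 250 bases before the start are printed for the genes at the ends of the pattern. Scin and Kcnc1 were high in WT, Ppm1e was low in WT, and Cmah, with 2 windows, had WT between P2+ and P2-. Letters are lower case and capitals mark a GATA hexamer (AGATAA or TGATAA, read on either strand).
Scin promoter: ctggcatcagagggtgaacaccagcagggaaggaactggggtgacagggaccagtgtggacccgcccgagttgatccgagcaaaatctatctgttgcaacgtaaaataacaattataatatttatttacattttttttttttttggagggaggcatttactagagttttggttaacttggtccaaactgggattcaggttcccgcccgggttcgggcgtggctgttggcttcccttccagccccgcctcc
Kcnc1 promoter: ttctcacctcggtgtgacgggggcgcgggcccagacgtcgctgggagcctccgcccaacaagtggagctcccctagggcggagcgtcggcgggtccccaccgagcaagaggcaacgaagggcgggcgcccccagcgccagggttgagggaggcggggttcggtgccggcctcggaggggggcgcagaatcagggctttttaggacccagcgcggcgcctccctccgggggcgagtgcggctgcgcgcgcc
Ppm1e promoter: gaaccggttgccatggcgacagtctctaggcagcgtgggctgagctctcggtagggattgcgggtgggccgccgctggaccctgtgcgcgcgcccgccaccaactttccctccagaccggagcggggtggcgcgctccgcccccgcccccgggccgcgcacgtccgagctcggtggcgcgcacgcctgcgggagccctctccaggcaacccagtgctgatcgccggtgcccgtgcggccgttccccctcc
Cmah promoter window 1: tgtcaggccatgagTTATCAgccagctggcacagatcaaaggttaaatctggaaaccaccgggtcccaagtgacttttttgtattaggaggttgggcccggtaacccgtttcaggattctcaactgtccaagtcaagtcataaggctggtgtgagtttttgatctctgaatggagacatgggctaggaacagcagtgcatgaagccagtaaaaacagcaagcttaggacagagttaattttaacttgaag
Cmah promoter window 2: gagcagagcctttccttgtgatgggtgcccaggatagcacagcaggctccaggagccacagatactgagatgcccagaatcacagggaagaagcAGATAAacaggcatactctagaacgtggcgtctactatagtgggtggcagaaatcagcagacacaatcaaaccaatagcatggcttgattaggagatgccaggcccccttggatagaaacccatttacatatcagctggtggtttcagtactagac
The windows run 5′ to 3′ on the strand of the gene. That of Scin is chr12:40134229-40134478 on the minus strand, that of Kcnc1 chr7:46396218-46396467 on the plus strand and that of Ppm1e chr11:87358995-87359244 on the minus strand. The windows of Cmah are chr13:24327154-24327403 and chr13:24414872-24415121, both on the plus strand. The windows of Kcnc1 and Ppm1e were rich in G and C (74.7% and 74.3% of the 300 bases, against 52% in Scin). Neither the RUNX hexamers TGTGGT or TGCGGT, the GATA hexamers nor the Ets hexamer CCGGAA was found in the windows of Scin, Kcnc1, Ppm1e, Afap1, Col1a2 or Thsd4 on either strand. GATA hexamers were found in both windows of Cmah and in 1 of 2 windows of Aldh1a1, and TGTGGT in 1 of 3 windows of Il18r1. Among all 32851 mouse windows of this length, 22.4% held a RUNX hexamer, 18.6% a GATA hexamer and 14.9% the Ets hexamer. These matches describe letters only.

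Every WT library lay above the other 9 libraries for 8 of the 10 genes (Scin, Kcnc1, Aldh1a1, Afap1, Sdc2, Col1a2, Thsd4 and Il18r1) and below them for Ppm1e, which is what they were chosen for. Of 13272 genes that reached 1 CPM in 3 or more of the 12 libraries, 144 (1.08%) had all WT libraries above the rest and 118 (0.889%) had all of them below. Ordered by the gap between the WT mean and the nearest other group mean (log2 CPM), Kcnc1 was first of the 144, followed among the genes described here by Col1a2 (6th), Sdc2 (10th), Il18r1 (12th), Thsd4 (13th), Afap1 (14th), Scin (15th) and Aldh1a1 (24th), and Ppm1e was at place 3 of the 118. The WT libraries of Cmah, which was chosen by KO against WT, lay between P2+ and P2-. All KO libraries lay above the other 9 for Ppm1e and Cmah, among 180 such genes (1.36%), and below them for Kcnc1, Sdc2 and Il18r1, among 166 (1.25%). The closest case was Aldh1a1, whose lowest WT library was 1.05 times its highest other library. The same ratio was 1.59 for Col1a2, 1.60 for Thsd4, 1.66 for Il18r1, 1.84 for Scin, 2.08 for Sdc2, 2.14 for Afap1 and 4.94 for Kcnc1, and for Ppm1e the lowest other library was 1.63 times the highest WT library.

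**Figure D1:**
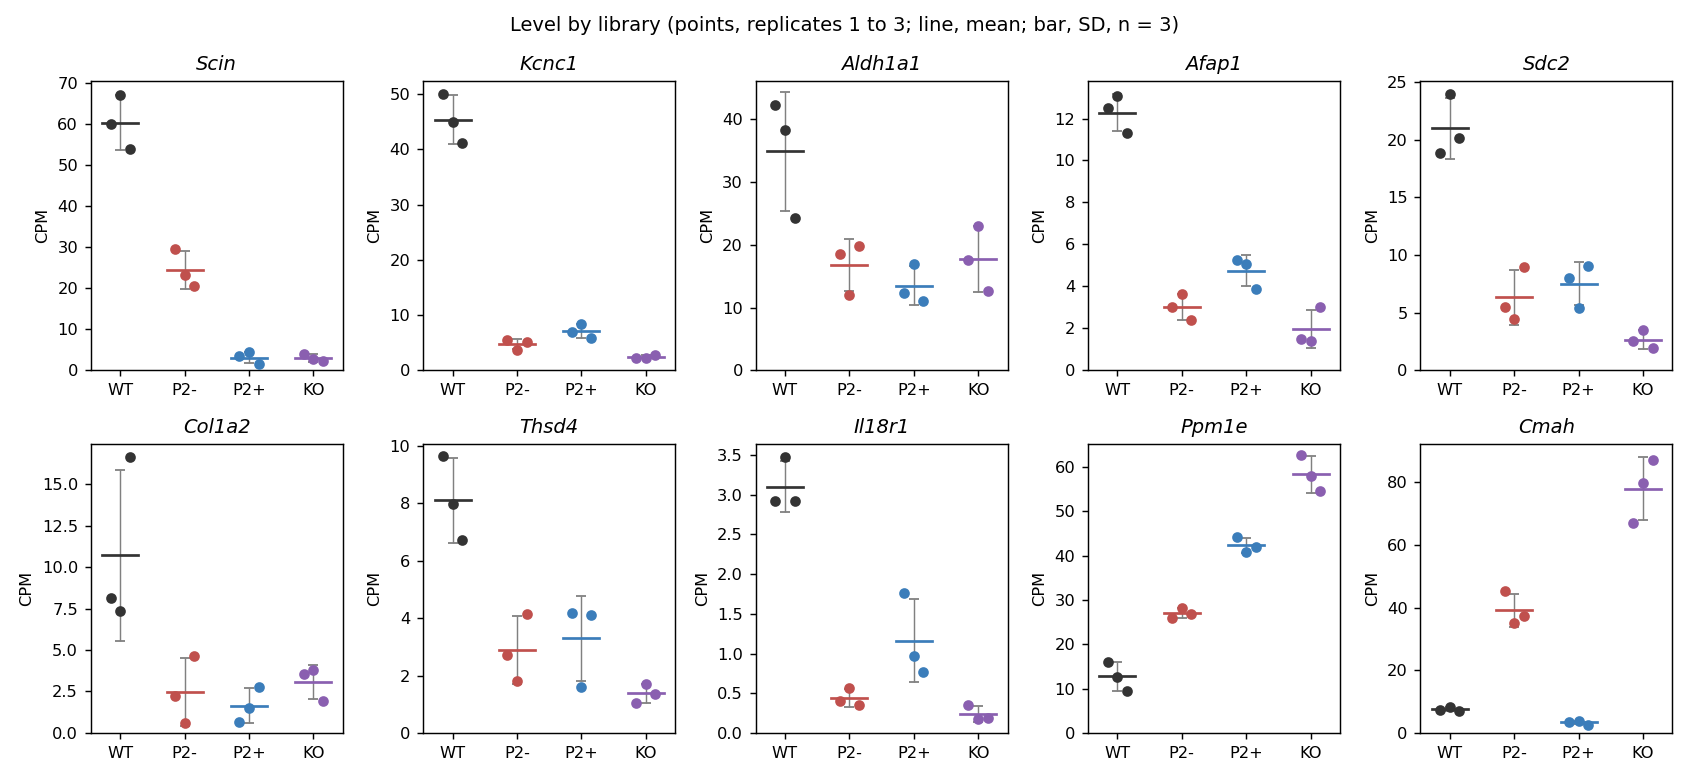
CPM (linear axis from 0, TMM scaled) of each of the 10 genes in WT, P2-, P2+ and KO PreMegEs, with 1 point per library, a line at the group mean and bars for the SD (n = 3). WT points lie above all others for 8 genes and below them for Ppm1e, while Cmah is highest in KO and lower in WT than in P2-.

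**Figure D2:**
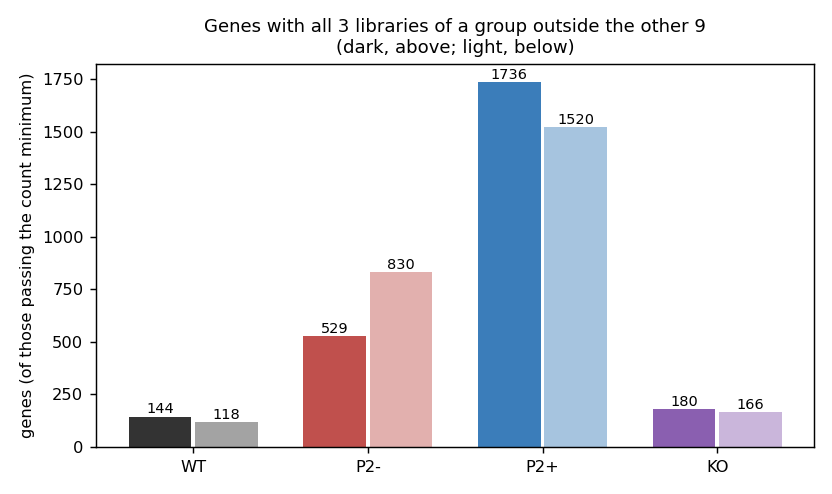
Number of genes, out of 13272 that passed the count minimum, for which all 3 libraries of a group lay above (dark) or below (light) the other 9 libraries. WT was outside for 144 and 118 genes and KO for 180 and 166, against 1736 and 1520 for P2+.

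Scin (ENSMUSG00000002565, chr12:40059769-40134228, minus strand), an actin severing and capping protein of the gelsolin family that depends on calcium, had the highest level per length among the 10 genes in WT PreMegEs (20.1 ± 2.199 RPKM). Its WT libraries held 59.8, 67.1 and 54.0 CPM and its P2- libraries 29.4, 23.1 and 20.6 CPM. P2+ libraries held 3.35, 4.37 and 1.52 CPM, and KO libraries 3.93, 2.83 and 2.18 CPM. The 4 groups thus fell into 3 levels, since P2+ and KO overlapped while WT and P2- overlapped with no other group. Against WT, the log2 fold change was -1.30 in P2-, -4.27 in P2+ and -4.34 in KO, or 2.46-fold, 19.3-fold and 20.2-fold lower. In bulk libraries, fewer cells with a transcript and less transcript per cell cannot be told apart.

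In the comparisons that were not the criterion of its choice, Scin fell in P2+ against P2- PreMegEs by 2.97 on the log2 scale (SE 0.33, adjusted p = 0.000173, edgeR quasi-likelihood test). It also fell in KO against P2- by 3.03 (SE 0.23, adjusted p = 0.000728). KO and P2+ did not differ beyond their spread (log2 fold change -0.07, SE 0.41, adjusted p = 0.916). At an adjusted p under 0.05 and at least 2-fold, 12.7% of 12836 genes were called in P2+ against P2-, 0.508% of 12588 in KO against P2- and 11.3% of 12807 in KO against P2+. Scin was thus 1 of 64 genes called in KO against P2- PreMegEs.

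Of the other gelsolin family genes, Gsn, Capg, Flii, Svil and Vill were tested and Vil1 and Avil were below the count minimum. None of the 5 was called in any of the 6 comparisons. Svil and Gsn passed the p threshold against WT but not the 2-fold minimum. Svil was lower in KO (log2 fold change -0.76, adjusted p = 1.16e-05, edgeR) and P2- (-0.59, adjusted p = 0.00805), but not in P2+ (0.06, adjusted p = 0.724). Gsn was lower in KO (-0.74, adjusted p = 0.0275). Against WT, Vill, Capg and Flii did not pass the p threshold in any group. Gelsolin itself (Gsn) had 8.68 ± 0.909 CPM in WT and 5.22 ± 0.783 in KO, and Capg 29.8 ± 3.96 and 31.3 ± 2.06. The genes whose levels over the 12 libraries were most like Scin were the phosphatase gene Ptpn3 (Pearson r = 0.966) and Rapgef3 (r = 0.953), an exchange factor for Rap that is activated by cAMP. These correlations, like those below, are over 12 libraries of 4 groups and describe mainly the group levels.

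Kcnc1 (ENSMUSG00000058975, chr7:46396497-46438704, plus strand) encodes Kv3.1, a voltage-gated potassium channel subunit best known for fast repolarization in neurons. It reached 50.0, 44.9 and 41.1 CPM in the WT libraries. The P2- libraries held 5.41, 3.72 and 5.06 CPM, the P2+ libraries 6.95, 8.33 and 5.87, and the KO libraries 2.27, 2.23 and 2.73. WT stood far above the rest, and KO below both reporter groups without overlap. Described against WT, Kcnc1 was 9.44-fold lower in P2-, 6.39-fold lower in P2+ and 18.9-fold lower in KO.

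Kcnc1 fell in KO against P2+ PreMegEs by 1.56 on the log2 scale (SE 0.27, adjusted p = 0.00104 by edgeR's quasi-likelihood test). The difference of KO from P2- was -0.99 (SE 0.27, adjusted p = 0.115) and that of P2+ from P2- was 0.58 (SE 0.24, adjusted p = 0.09), neither of which passed. Of 15 other potassium channel genes, 6 were tested against WT. Kcnd1, a channel subunit of the Kv4 family, was lower in KO (1.92 ± 0.704 CPM) than in WT (4.48 ± 1.26 CPM), with a log2 fold change of -1.24 (SE 0.36, adjusted p = 0.0249, edgeR), and lower in P2- (-1.21, adjusted p = 0.0297). Kcnq5 was lower in KO (-1.35, adjusted p = 0.000367). None of the 6 was called in P2+ against WT. Unlike Kcnc1, Kcnd1 in P2+ PreMegEs (7.04 ± 1.35 CPM) was not below WT. Most like Kcnc1 over the libraries were Cmklr1 (r = 0.961), the receptor of chemerin, and Afap1 (r = 0.953).

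Afap1 (ENSMUSG00000029094, chr5:35893319-36003923, plus strand), an adaptor that links Src to actin filaments, held 12.5, 13.1 and 11.3 CPM in WT libraries. It held 3.02, 3.62 and 2.39 CPM in P2-, 5.28, 5.07 and 3.89 in P2+, and 1.48, 1.37 and 3.00 in KO. WT did not overlap with any group, and KO overlapped with P2- only. Against WT it was described as 4.07-fold lower in P2-, 2.58-fold lower in P2+ and 6.32-fold lower in KO. It fell in KO against P2+ by 1.30 on the log2 scale (SE 0.36, adjusted p = 0.0159, edgeR), a call that was lost without KO replicate 1 or KO replicate 2 (adjusted p = 0.0642 and 0.0634). The other 2 tests did not pass, with 0.66 (adjusted p = 0.0958) for P2+ against P2- and -0.63 (adjusted p = 0.474) for KO against P2-.

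Among 8 genes of the Src-linked actin adaptors, 7 were tested. Against WT, Cttn (cortactin) and Actn1 (alpha-actinin 1) were lower in KO (log2 fold change -1.13 and -1.69, adjusted p = 4.16e-07 and 1.83e-05 by edgeR) and in P2- (-1.18 and -1.56, adjusted p = 3.38e-05 and 0.00115). Src itself was lower in P2- (-1.56, adjusted p = 0.00509). None was called in P2+ against WT, and 4 (Afap1l1, Src, Cttn and Actn1) were higher in P2+ than in P2- and lower in KO than in P2+. Cttn and Actn1 in WT were thus near P2+ (78.8 and 11.9 CPM in WT, 82.5 and 14.9 CPM in P2+), whereas Afap1 in P2+ was at 4.74 ± 0.750 CPM against 12.3 ± 0.893 in WT.

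Ppm1e (ENSMUSG00000046442, chr11:87226906-87359023, minus strand), a phosphatase of the metal-dependent family that acts on PAK kinases, was the gene with the opposite direction. In WT it was at 16.0, 12.7 and 9.56 CPM and in P2- libraries at 26.0, 28.2 and 26.9. P2+ libraries held 44.2, 40.8 and 42.0 CPM, and KO libraries 62.6, 57.9 and 54.5. The 4 groups followed each other in the order WT, P2-, P2+, KO with no overlap between neighbours. Against WT it was described as 2.14-fold, 3.33-fold and 4.55-fold higher in P2-, P2+ and KO.

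Ppm1e rose in KO against P2- PreMegEs by 1.10 on the log2 scale (SE 0.09, adjusted p = 0.000728, edgeR). The smaller steps from P2- to P2+ (0.65, SE 0.10, adjusted p = 0.00112) and from P2+ to KO (0.45, SE 0.09, adjusted p = 0.00232) passed the p threshold but not the 2-fold minimum. Of 15 other PPM phosphatases and PAK pathway genes, 13 were tested against WT. None was called in P2- or KO against WT, and Ppm1l alone in P2+ (24.8 against 87.3 CPM, log2 fold change -1.81, adjusted p = 0.000158). Most like Ppm1e over the 12 libraries was Rxra (r = 0.925), the retinoid X receptor, with means of 8.96, 14.8, 21.5 and 27.6 CPM in WT, P2-, P2+ and KO, and then Pcdh7 (r = 0.920).

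**Figure D3:**
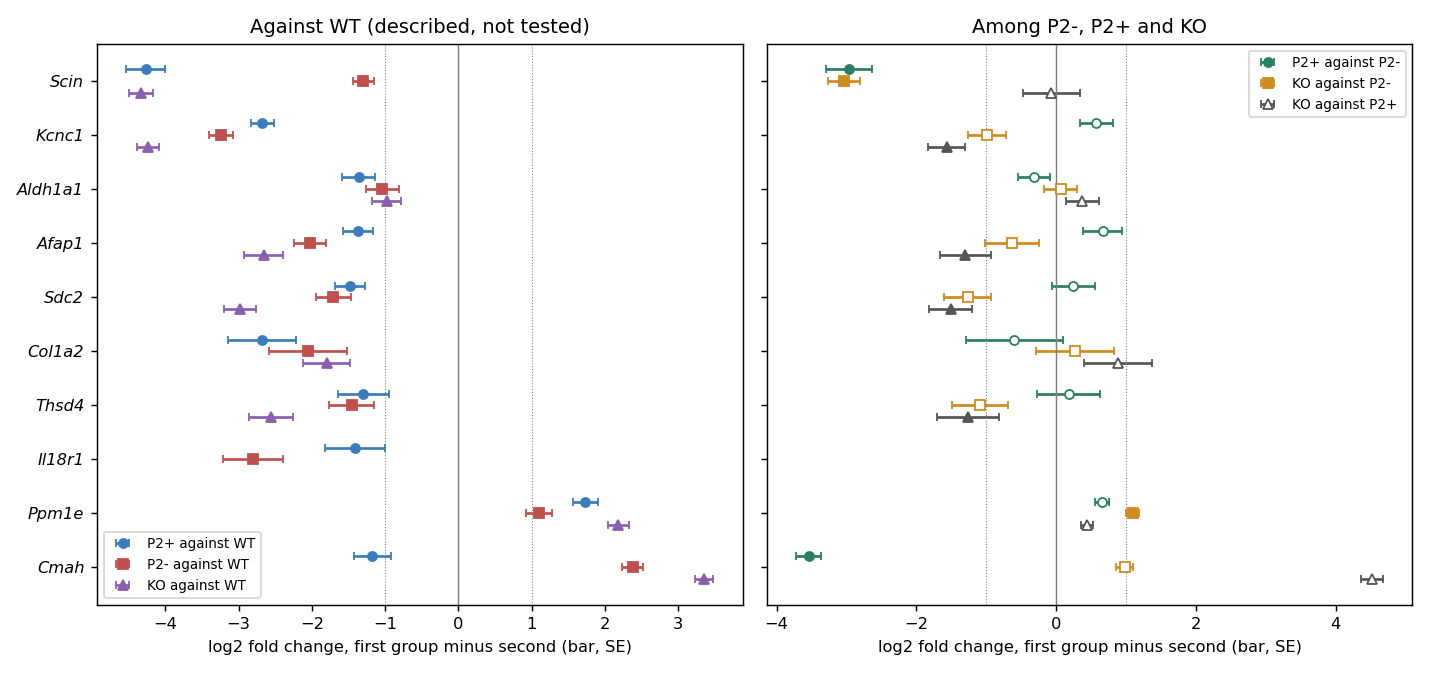
Log2 fold changes with SE (bars) of the 10 genes. The left panel gives P2+, P2- and KO against WT, which chose the genes and carry no test, and the right panel gives the comparisons among P2-, P2+ and KO, with filled symbols for changes that passed an adjusted p under 0.05 and at least 2-fold. Scin and Cmah are far below 0 in P2+ against P2-, Kcnc1, Afap1, Sdc2 and Thsd4 are below 0 in KO against P2+, and open symbols for Cmah in KO mark values not tested. Il18r1 is left out for KO, where it was near the limit of 3 counts, and on the right, where it was below the count minimum.

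Sdc2 (ENSMUSG00000022261, chr15:32920723-33034935, plus strand), syndecan 2, is a heparan sulfate proteoglycan of the cell surface that binds growth factors and matrix. Its WT libraries held 18.9, 23.99 and 20.1 CPM, and its KO libraries 2.53, 3.51 and 1.91. P2- libraries held 5.49, 4.48 and 8.99 CPM and P2+ libraries 8.04, 5.42 and 9.07, so that the reporter groups overlapped with each other and lay between WT and KO. Described against WT, Sdc2 was 3.26-fold lower in P2-, 2.79-fold lower in P2+ and 7.89-fold lower in KO. It fell in KO against P2+ by 1.51 on the log2 scale (SE 0.31, adjusted p = 0.00309, edgeR). KO against P2- gave -1.27 (SE 0.33, adjusted p = 0.102), which did not pass, though it was called with DESeq2, with edgeR's exact test, with no filter on low counts, in the fit of all 12 libraries and without P2- replicate 2. P2+ against P2- gave 0.24 (adjusted p = 0.576).

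All 12 other syndecan and heparan sulfate genes were tested against WT. Gpc4, a glypican, was higher than in WT in P2- (1.60, adjusted p = 0.00846, edgeR) and KO (1.12, adjusted p = 0.0104) and lower in P2+ (-2.26, adjusted p = 0.0107). Sdc3 was lower in P2- (-1.38, adjusted p = 0.0308) and KO (-1.54, adjusted p = 0.00298). In P2-, Gpc1 was also lower (-1.38, adjusted p = 0.0246) and Ext1, a polymerase of heparan sulfate, higher (1.002, adjusted p = 0.000306).

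Thsd4 (ENSMUSG00000032289, chr9:59966931-60522046, minus strand), a matrix protein with thrombospondin repeats that binds fibrillin, held 9.65, 7.97 and 6.71 CPM in WT. It held 2.70, 1.81 and 4.14 CPM in P2-, 4.19, 1.60 and 4.11 in P2+, and 1.05, 1.71 and 1.37 in KO. WT lay above the rest, and the other 3 groups differed less clearly. Against WT it was 2.75-fold lower in P2-, 2.46-fold lower in P2+ and 5.88-fold lower in KO, as a description. Thsd4 fell in KO against P2+ by 1.26 (SE 0.44, adjusted p = 0.045, edgeR), but with the replicate number as a block the adjusted p was 0.0869, and the call was also lost without any 1 of P2+ replicate 1, P2+ replicate 3 or the 3 KO libraries (adjusted p up to 0.138). KO against P2- gave -1.09 (adjusted p = 0.227) and P2+ against P2- 0.18 (adjusted p = 0.788).

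In both reporter groups replicate 2, which held the high Fos counts and 0 (P2-) or 75 (P2+) counts of Xist, had the lowest Sdc2 and Thsd4 values. The part of Fos or of sex in these values was not tested. Sdc2 and Thsd4 were each other's most similar gene (r = 0.958), and their deviations from the group means had r = 0.767 over 12 libraries. That was the highest value of all 45 pairs, and the lowest was -0.736 (Afap1 with Sdc2). Over the 28 pairs among the 8 genes with WT above, the median correlation was 0.70 over the libraries but 0.01 after the group means were taken out, with 14 of 28 positive. Of 12 other thrombospondin repeat and fibrillin genes, 4 were tested against WT. Thsd1 was lower in P2- (-1.79, adjusted p = 0.00129, edgeR) and in KO (-1.30, adjusted p = 0.00247), and Thbs1, thrombospondin 1, in P2- (-1.73, adjusted p = 0.0264). None was called in P2+ against WT.

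Col1a2 (ENSMUSG00000029661, chr6:4504814-4541544, plus strand) encodes the alpha 2 chain of type I collagen, a matrix protein made mainly by fibroblasts and osteoblasts. In the WT libraries it was at 8.12, 7.38 and 16.6 CPM. P2- libraries held 2.23, 0.572 and 4.64 CPM, P2+ libraries 0.670, 1.53 and 2.74, and KO libraries 3.58, 3.77 and 1.91. WT lay above the other groups, which overlapped with each other, and replicate 3 raised the WT mean. Described against WT, Col1a2 was 4.16-fold lower in P2-, 6.41-fold lower in P2+ and 3.47-fold lower in KO. No comparison among the other groups passed (P2+ against P2- -0.60, adjusted p = 0.541, KO against P2- 0.27, adjusted p = 0.856, KO against P2+ 0.88, adjusted p = 0.184).

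Col1a1, which encodes the partner chain of type I collagen, held 0, 0 and 375 counts in the WT libraries, so that replicate 3 alone had it (27.4 CPM). It held 0 counts in all P2- and P2+ libraries and 5, 11 and 0 counts in KO. Sparc, another matrix gene of osteoblasts, was at 0.139, 0.763 and 8.24 CPM in WT and at most 0.686 CPM elsewhere. Of 12 markers of mesenchymal stroma and osteoblasts, 9 were detected in WT, 7 in P2-, 6 in P2+ and 7 in KO. Col3a1 and Dcn of this list were at 0 in all 12 libraries. The summed level of the list was 59.4 to 101 CPM in WT, 46.2 to 54.4 in P2-, 41.4 to 57.0 in P2+ and 45.5 to 50.2 in KO, most of it from Pdgfrb (57.3 to 64.3 CPM in WT). This was the only 1 of 9 marker lists with all WT libraries above the rest, but Pdgfrb by itself had the same order. Pdgfrb was also present in the other groups, at 45.1 to 52.0 CPM in P2-, 40.8 to 54.8 in P2+ and 42.7 to 47.9 in KO. Col1a1 was at 0 counts in WT replicates 1 and 2, so the list does not show stroma in every WT library. The part of these markers in the WT levels of the 8 genes was not tested. Without WT replicate 3, the WT mean of Col1a2 was 7.75 CPM and the lowest WT library still lay above the highest of the others (7.38 against 4.64 CPM).

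Of 15 other collagen and matrix genes, 7 were tested against P2+ and P2-, and 6 against KO. Col4a1 and Col4a2, basement membrane collagens, were higher in P2+ than in WT (1.41 and 1.68, adjusted p = 0.000684 and 0.00188, edgeR), as was Bgn (1.18, adjusted p = 0.00118). Col5a1 was lower in P2+ than in WT (7.94 against 49.9 CPM, -2.64, adjusted p = 6.32e-06). Col4a1 was lower in P2- (-1.55, adjusted p = 0.00419) and Bgn in KO (-1.06, adjusted p = 0.0106). For these 4 genes WT thus lay between the P2- and P2+ means, unlike Col1a2.

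Il18r1 (ENSMUSG00000026070, chr1:40465552-40500854, plus strand) encodes the chain of the interleukin 18 receptor that binds the ligand, and Il18rap, the accessory chain, completes the signalling receptor. Il18r1 was the lowest of the 10 genes in counts, with 42, 41 and 40 counts in WT libraries (2.92, 3.48 and 2.92 CPM). It held 5, 6 and 5 counts in P2-, 21, 14 and 10 in P2+, and 4, 2 and 2 in KO. WT was above P2+, and P2+ above P2- and KO. Against WT it was described as 2.66-fold lower in P2+ and 6.97-fold lower in P2-, and no fold is given for KO, where 2 libraries were under the limit of 3 counts. It was below the count minimum in the comparisons among P2-, P2+ and KO. With no minimum, the log2 fold change for P2+ against P2- was 1.38 (SE 0.70, adjusted p = 0.186, edgeR).

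On chromosome 1, Il18r1 lies between Il1rl1, the receptor of interleukin 33, 0.137 kb to its left and Il18rap 14.5 kb to its right, and these neighbours had other patterns. Il18rap had 9.97 ± 2.46 CPM in WT and 9.001 ± 3.76 in P2+, which overlapped, but 1.61 ± 0.553 in P2- and 2.11 ± 0.113 in KO. It was lower than WT in P2- (-2.59, SE 0.31, adjusted p = 0.000402, edgeR) and in KO (-2.24, SE 0.26, adjusted p = 1.14e-05). Il1rl1 had 201.9 ± 20.9 CPM in WT, between 119.8 ± 35.0 in P2+ and 369.5 ± 30.1 in P2-, and 402.4 ± 40.5 in KO, and fell in P2+ against P2- (-1.62, adjusted p = 0.000253). Il1r1, the interleukin 1 receptor, was also lower than WT in P2- (-1.69, adjusted p = 0.00209) and KO (-1.06, adjusted p = 0.00114). The ligand gene Il18 was low, at no more than 1.04 CPM in any library. Of 14 other receptor and signalling genes of this family 11 were tested in P2+ against WT and none was called. Across all 10 genes, none of the 20 nearest neighbours that passed the count minimum had its WT libraries outside the others.

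**Figure D4:**
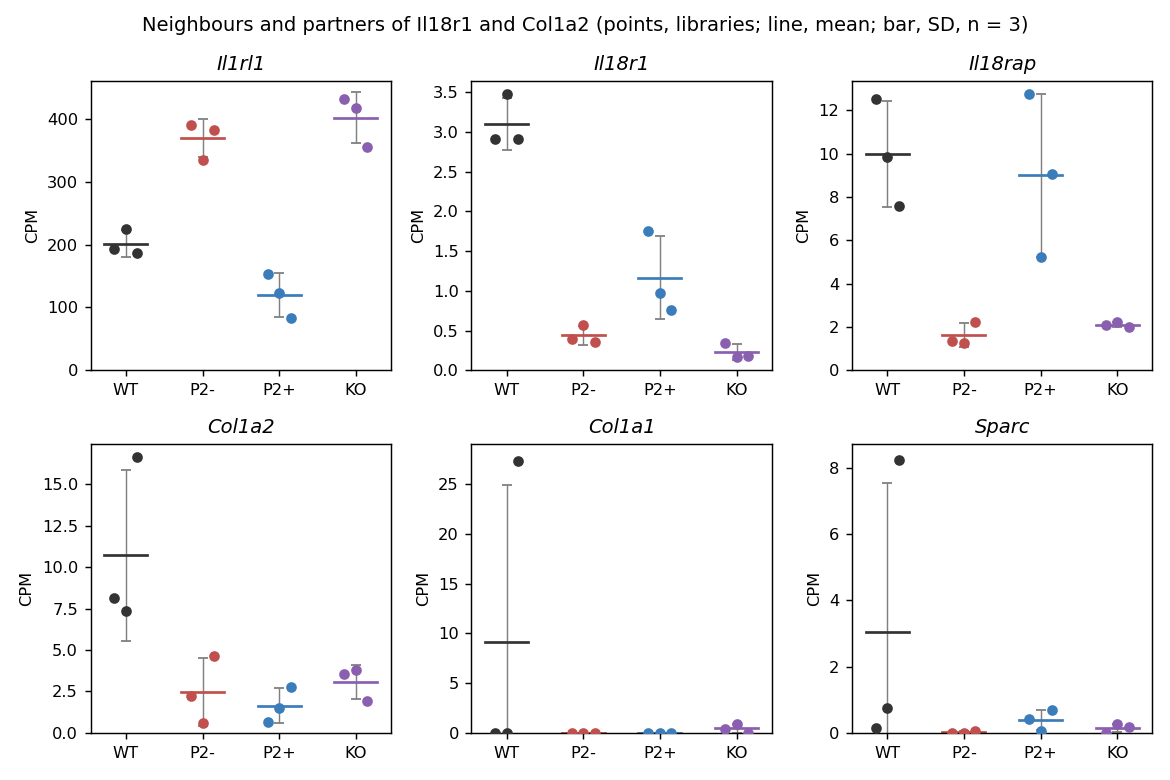
CPM (linear axis from 0, TMM scaled) of Il18r1 with its neighbours Il1rl1 and Il18rap, and of Col1a2 with the matrix genes Col1a1 and Sparc, with 1 point per library, a line at the mean and bars for the SD (n = 3). Il18rap is alike in WT and P2+ and low in P2- and KO, and Col1a1 and Sparc are high in WT replicate 3 (27.4 and 8.24 CPM), the library with the highest Col1a2.

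Aldh1a1 (ENSMUSG00000053279, chr19:20492715-20643465, plus strand) makes retinoic acid from retinaldehyde and is used as a marker of stem and progenitor cells. In WT it was at 42.3, 38.3 and 24.2 CPM. P2- libraries held 18.6, 12.0 and 19.7 CPM, P2+ libraries 12.4, 17.0 and 11.05, and KO libraries 17.6, 23.0 and 12.6. WT was above the rest by a narrow margin, since WT replicate 3 (24.2 CPM) was close to KO replicate 2 (23.0 CPM), and the other groups overlapped. Against WT it was described as 2.06-fold lower in P2-, 2.57-fold lower in P2+ and 1.97-fold lower in KO. No comparison among the other groups passed (P2+ against P2- -0.31, adjusted p = 0.329, KO against P2- 0.07, adjusted p = 0.928, KO against P2+ 0.38, adjusted p = 0.233).

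Aldh1a7, a close paralog that lies 49.5 kb from Aldh1a1 on chromosome 19, had 2.97 ± 0.912 CPM in WT, 2.95 ± 0.449 in P2-, 0.373 ± 0.167 in P2+ and 2.38 ± 1.52 in KO. Reads of near-identical stretches may be shared between these genes, so both levels are uncertain. Aldh1a7 fell in P2+ against P2- (-2.93, SE 0.45, adjusted p = 0.0011, edgeR) and against WT (-2.93, SE 0.49, adjusted p = 0.0026). Its P2+ libraries held 4, 8 and 3 counts, near the limit of 3 counts, so the size of these falls is uncertain. Of 18 other retinoic acid genes 9 were tested against WT. Dhrs3, which turns retinaldehyde back to retinol, had 19.5 ± 2.30 CPM in WT, 16.3 ± 0.495 in P2+, 5.15 ± 0.526 in KO and 2.12 ± 0.663 in P2-. It was lower than WT in P2- (-3.17, SE 0.24, adjusted p = 3.07e-05) and in KO (-1.92, SE 0.17, adjusted p = 6.18e-07). Rxra was higher than WT in P2+ (1.26, adjusted p = 0.000679) and in KO (1.61, adjusted p = 9.44e-07). Most like Aldh1a1 were Rab40b (r = 0.885) and Cblb (r = 0.874), lower correlations than for the other 9 genes.

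Cmah (ENSMUSG00000016756, chr13:24327404-24477377, plus strand), the hydroxylase that makes N-glycolylneuraminic acid from N-acetylneuraminic acid on its nucleotide sugar, had WT between P2+ and P2- and was highest in KO. Its WT libraries held 7.29, 8.31 and 7.15 CPM, above the P2+ libraries at 3.60, 3.75 and 2.67 CPM. P2- libraries held 45.2, 35.0 and 37.2 CPM and KO libraries 67.0, 79.8 and 86.9. The 4 groups were ordered P2+, WT, P2-, KO with no overlap. Cmah fell in P2+ against P2- PreMegEs by 3.54 on the log2 scale (SE 0.18, adjusted p = 3.75e-06, edgeR), or 11.6-fold. As a description, it was 10.3-fold higher in KO than in WT, 23.0-fold higher in KO than in P2+ and 1.98-fold higher in KO than in P2-.

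Most like Cmah were Sgpp1 (r = 0.984), a phosphatase of sphingosine 1-phosphate, and Plcl2 (r = 0.984). Of 16 other genes of sialic acid synthesis and transfer, 15 were tested against WT. St6gal1, a sialyltransferase, was lower in KO (-1.59, adjusted p = 0.0243, edgeR), Npl, a sialic acid lyase, lower in P2- (-1.03, adjusted p = 0.0158) and St3gal6 higher in P2+ (1.24, adjusted p = 0.0278). Of the genes that act just before Cmah, Gne, Nans and Cmas were tested and not called in any of the 6 comparisons, and Nanp was below the count minimum.

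Counted together, 2 of the 9 genes tested were called in P2+ against P2- (Scin and Cmah, both lower), against 12.7% of all genes. In KO against P2-, 2 of 8 were called without Cmah (Scin lower, Ppm1e higher), against 0.508%, and in KO against P2+ 4 of 8 (Kcnc1, Afap1, Sdc2 and Thsd4, all lower), against 11.3%. The median log2 fold change of the tested genes was 0.18 in P2+ against P2-, -0.81 in KO against P2- and -0.67 in KO against P2+, with medians over all genes of -0.02, -0.01 and 0.00. These comparisons share libraries and are not independent of each other. The choice of the genes used values of the same libraries against WT, so the shares of all genes are background and not a test of the set. Against WT, 3.84% of all genes tested were called in P2+, 4.68% in P2- and 3.41% in KO, given as background only, because these comparisons chose the genes. Of the 132 genes of the 10 lists around them, 9 of 89 tested were called in P2+ against WT, 16 of 88 in P2- against WT and 13 of 87 in KO against WT. Within the same lists 33 of 88 were called in P2+ against P2-, 0 of 85 in KO against P2- and 28 of 89 in KO against P2+.

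Aldh1a1, Thsd4, Ppm1e and Cmah overlap annotated genes on the opposite strand. Whether the counting used the strand is not given in the sources used here, so part of their counts cannot be told apart from those genes. Afap1, Col1a2, Thsd4 and Ppm1e overlap annotated genes on their own strand, and the effect on their counts was not tested. The levels per length in WT ranged from 0.580 ± 0.105 RPKM for Thsd4 to 20.1 ± 2.199 for Scin, with Kcnc1 at 4.80 ± 0.469, Aldh1a1 at 7.08 ± 1.92 and Sdc2 at 5.96 ± 0.755 RPKM between them.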

How the data were processed

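RNA-Seq libraries of PreMegEs were made by the authors from poly(A) RNA with a strand-specific kit, and paired reads were aligned to GRCm38 with Bowtie2 and counted on Ensembl genes with featureCounts. The submitters' processing notes also name SAMtools 0.1.19, R 3.1.0 and edgeR 3.8.5. The deposited values are integer counts per gene and library, not normalized. Groups came from the sample labels, and all 12 libraries were used.

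Counts were scaled by TMM to CPM, and RPKM was computed from CPM and the exonic length in GENCODE vM21, where 40254 of 41128 genes were found. Each comparison was fitted across all genes that reached 1 CPM in 3 or more of its 6 libraries by edgeR 4.0.16 (quasi-likelihood test, R 4.3.3), with Benjamini-Hochberg adjustment. Genes were called at an adjusted p under 0.05 and at least 2-fold. Likeness was the Pearson correlation of log2 CPM (prior count 2). The procedure was tested on simulated data. Tests measure the spread between pools of 3 mice.

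Deviations from the group means were correlated between P2- and P2+ libraries of equal number (0.386, 0.572 and 0.405 across genes), so these numbers pair the samples. Named genes were the members, the genes of 10 lists around them that were called (some are not reported here by name), the 2 most similar genes and the nearest neighbours of each, while unlisted genes named for context were chosen after their values were seen. Members and lists were chosen with earlier results of these data known. Alternatives were RLE scaling, DESeq2 1.42.0, edgeR's exact test, no filter, 1 fit of all 12 libraries, a replicate block, no minimum fold and leaving out each library.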

Additional observations from a re-analysis of the deposited data

How the results depend on the processing

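Every directional call of a member named among P2-, P2+ and KO PreMegEs kept its direction under the alternatives run. The fold changes of the other genes named, such as Cttn, Il1rl1 and Aldh1a7, were not followed under the alternatives. In P2+ against P2-, Scin and Cmah kept their calls under all 12 alternatives that give a fold change, as did Scin and Ppm1e in KO against P2- and Kcnc1 and Sdc2 in KO against P2+. Afap1 and Thsd4 did not, as given beside their values, and Sdc2 was called in KO against P2- under 5 of 12. Leaving out each library gave 2 to 4 members called in KO against P2+, with 2 without KO replicate 1 and 2 without KO replicate 2. The cause was not tested.

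Without the 2-fold minimum, 4762 genes were called in P2+ against P2-, 203 in KO against P2-, 4743 in KO against P2+, 2138 in P2+ against WT, 2101 in P2- against WT and 1910 in KO against WT. In KO against P2- the 64 genes became 108 with DESeq2, 138 with edgeR's exact test, 158 with no filter on low counts, and 23 to 97 with 1 library left out (97 without P2- replicate 2, 28, 23 and 36 without KO replicates 1, 2 and 3). Genes with all WT libraries above the other 9 numbered 158 to 337, and below them 118 to 283, with 1 library left out, the highest values coming without WT replicate 3 and fewer WT libraries making it easier to lie outside. With counts scaled by the plain library total the 2 numbers were 186 and 81.

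With the replicate block, 1777 genes were called in P2+ against P2- (1626 without it), and 50, 1408, 468, 525 and 449 in KO against P2-, KO against P2+, P2+ against WT, P2- against WT and KO against WT. Among the members it changed no call but that of Thsd4. Outside P2- and P2+ the libraries share only a number (correlations of -0.085 to 0.159). At 2 to 4 counts in KO libraries, depth limits what can be said of Il18r1.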
